A study of Rattus norvegicus with 36 samples.

Results

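The regions described here were 1716 stretches of the rat genome at which phosphorylated CREB (pCREB) was detected by ChIP-seq in nearly every hippocampal library and the glucocorticoid receptor (GR) was not. They were chosen by 2 values of the deposited region table: no overlap with any GR region, and a pCREB peak call in at least 13 of the 16 pCREB libraries, on chromosomes 1 to 20 or X. They made up 16.4% of the 10465 pCREB regions without GR overlap on these chromosomes and 11.7% of all 14722 pCREB regions. In what follows they are called the common pCREB-only regions. Because calls and overlap chose them, their high call numbers, their high signal and their lack of GR overlap are descriptions and were not tested.

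The series concerned how glucocorticoids strengthen memory formation and used the hippocampus of male Sprague-Dawley rats. Rats were untrained or trained, and each received vehicle or corticosterone, the main glucocorticoid of rats, which gave 4 conditions with 4 libraries each (A to D). Each library came from a pool of chromatin from 4 hippocampi of 2 rats, which served for precipitation of GR and, separately, of CREB phosphorylated at serine 133. Replicates were separate pools, so that values describe mixed hippocampal cells and averages over 2 animals, and fewer cells with a bound site and less binding per cell cannot be told apart. Age, dose and training task are not stated in the labels, which place each condition on a sequencing lane of its own, so that effects of lane cannot be told apart from those of condition.

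CREB is a transcription factor that sits on cyclic AMP response elements, often near gene starts. Kinases that respond to cyclic AMP and calcium phosphorylate it at serine 133, which recruits coactivators, and in the hippocampus this step is a classical requirement for lasting memory. GR is a nuclear receptor that enters the nucleus on binding corticosterone and occupies its own response elements or sites shared with other factors. The files name regions by coordinates of genome build rn6 with no gene names, so that the genes and motifs at these regions were not analysed here and each region is given by position alone.

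Read depth in pCREB regions ran from 143219 reads (trained corticosterone A) to 562249 (trained vehicle B), and the shallowest libraries were trained corticosterone A and untrained vehicle A (226220). The common pCREB-only regions had a median of 14 to 84 reads each, depending on the library. Signal is given below as normalised read counts scaled to the reads in the tested pCREB regions (CPM), and per kilobase of region where regions are compared with each other. All 1716 regions passed the filter on low counts, which kept 14553 pCREB regions.

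The strongest of these regions per kilobase lay at chr14:1469048-1470503, 1456 bp wide, with a mean of 734 CPM per kb and its nearest GR region 1376333 bp away. It held 754, 1340, 951 and 1240 CPM in untrained vehicle A to D and 1180, 997, 818 and 801 CPM in untrained corticosterone A to D. In trained vehicle A to D it held 1430, 2400, 683 and 845 CPM, and in trained corticosterone A to D 861, 934, 618 and 1230 CPM. The 4 conditions overlapped, and the highest and the second lowest of the 16 values both belonged to trained vehicle. The region ranked first among the 1716 in 7 libraries and never lower than the sixth place.

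The next region, chr1:148449183-148450887, was 1705 bp wide, averaged 678 CPM per kb and ranked first in 4 libraries. It held 919, 1340, 1490 and 1280 CPM in untrained vehicle, 1230, 1050, 1050 and 687 CPM in untrained corticosterone, 1530, 1910, 735 and 961 CPM in trained vehicle, and 1300, 885, 576 and 1550 CPM in trained corticosterone, each in the order A to D. Trained vehicle B was again the highest library and trained corticosterone C the lowest. The third region, chr12:18751150-18753239 (2090 bp, 616 CPM per kb), ran from 788 CPM in trained vehicle C to 2610 CPM in trained vehicle B, with a median of 1190 CPM. At each of the 10 strongest regions, of which these 3 were the widest, the range within trained vehicle exceeded the largest distance between condition means. This sets single libraries beside means of 4 and is not a test.

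The other 7 of the 10 strongest regions were narrower, at 480 to 920 bp. They were chr15:33544034-33544631, chr8:59313186-59313978, chr20:10981689-10982168, chr2:237751143-237752062, chr19:56731015-56731799, chr10:64397865-64398677 and chr1:1896894-1897689, with 608, 589, 575, 563, 563, 520 and 519 CPM per kb. All 10 had a call in each of the 16 libraries. Trained vehicle B was the highest library at 9 of the 10, the exception being chr15:33544034-33544631, where trained corticosterone D held 512 CPM and trained vehicle B 507 CPM. At chr19:56731015-56731799 the lowest library, trained corticosterone C, held 200 CPM, the median was 383 CPM and trained vehicle B held 919 CPM. The smallest distance from any of the 10 to a GR region was 17670 bp, also at chr19:56731015-56731799.

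**Figure D1:**
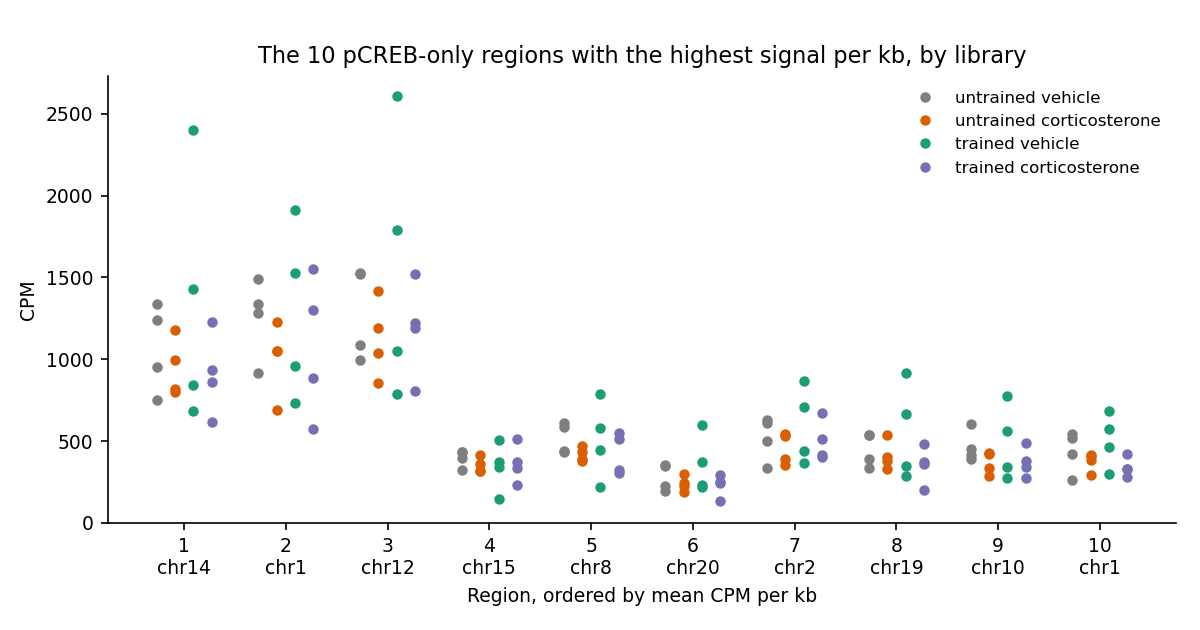
Signal in CPM (vertical axis, from 0) of the 10 common pCREB-only regions with the highest CPM per kb (horizontal axis, in that order, with their chromosome). Each point is 1 library and colours mark the 4 conditions; trained vehicle holds the highest point at 9 of the 10 regions, up to 2610 CPM at the third.

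Calls fell short mainly in the 2 shallow libraries. Among the 1716 regions, 324 had a call in all 16 libraries, 251 in 15, 479 in 14 and 662 in 13. Untrained vehicle A had calls at 587 of the regions (34.2%) and trained corticosterone A at 591 (34.4%), whereas each of the other 14 libraries had calls at 1458 to 1716 (85.0% to 100%). Of the 1392 regions with a missing call, 563 lacked it only in one or both of these 2 libraries, and 337 lacked exactly both. The summed signal of the regions in the shallow libraries was 0.838 (untrained vehicle A) and 0.984 (trained corticosterone A) times the mean of the 16 libraries, inside the range of the others (0.674 to 1.86).

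Reads in the common pCREB-only regions made up 17.7% to 32.9% of the reads in all pCREB regions. The shares were 19.1%, 28.1%, 21.7% and 24.6% in untrained vehicle A to D (23.4% ± 3.87, SD, n = 4) and 25.8%, 23.5%, 20.3% and 20.1% in untrained corticosterone A to D (22.4% ± 2.73). They were 28.1%, 32.9%, 18.4% and 20.8% in trained vehicle A to D (25.04% ± 6.65) and 20.3%, 21.2%, 17.7% and 26.2% in trained corticosterone A to D (21.3% ± 3.55). The conditions overlapped, and trained vehicle had both the highest share of all and the widest spread. The share in the 1947 pCREB regions that overlapped GR and also had 13 or more calls went the other way, from 13.4% in trained vehicle B to 22.0% in trained corticosterone C. Both shares are parts of the same total, so that a high share of one lowers the other and the opposite order is in part given. The ratio of the 2 shares therefore ran from 0.803 in trained corticosterone C to 2.45 in trained vehicle B.

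**Figure D2:**
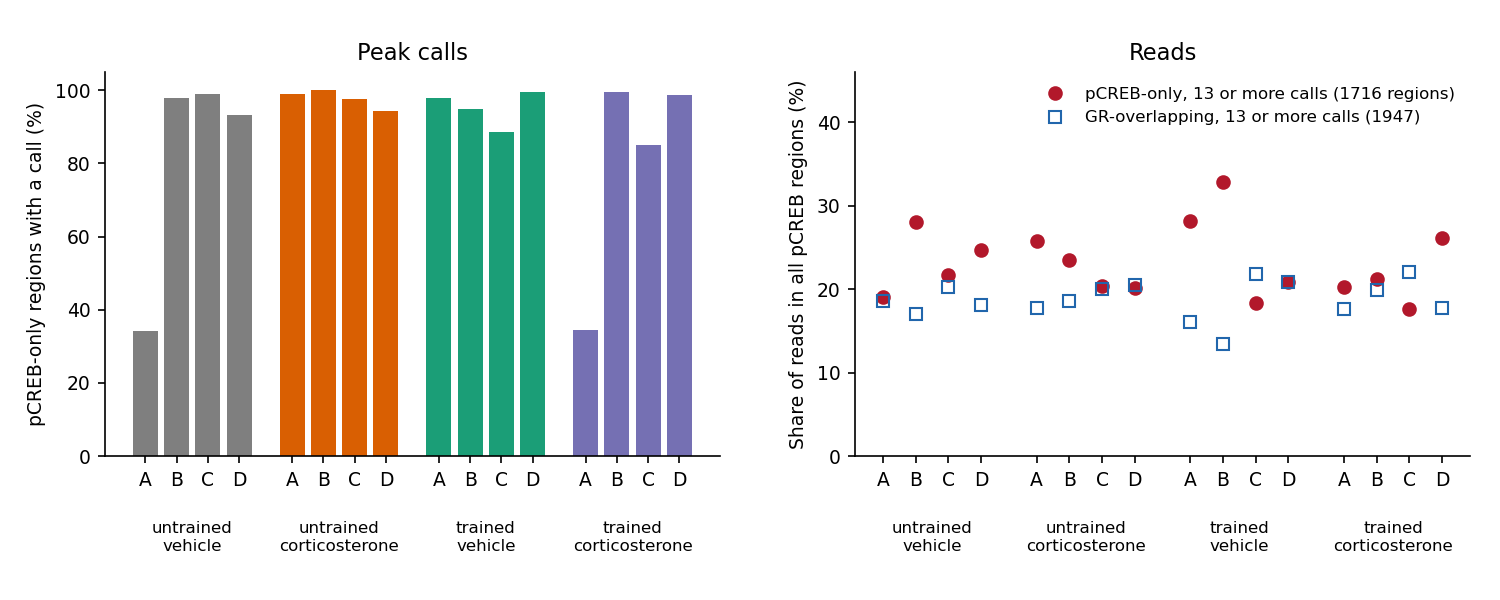
Left, percentage of the 1716 common pCREB-only regions with a peak call in each of the 16 libraries (A to D in each condition; bars start at 0). Right, share of each library's reads in pCREB regions that fell in the 1716 regions (filled circles) or in the 1947 GR-overlapping regions with 13 or more calls (open squares); untrained vehicle A and trained corticosterone A stand low in calls, and trained vehicle B has the highest circle (32.9%) and the lowest square (13.4%).

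The common pCREB-only regions were wide. Their median width was 682 bp (235 to 3292 bp), against 417 bp for the 8749 pCREB-only regions with fewer calls and 568 bp for the 1947 GR-overlapping regions. Regions over 1 kb made up 16.6% of them (285), 3.59% of the pCREB-only regions with fewer calls and 5.24% of the GR-overlapping regions. The share of pCREB-only regions that reached 13 calls rose through every width class, from 5.28% up to 400 bp through 13.7%, 29.6% and 39.8% to 47.6% over 1 kb. Signal per kilobase had a median of 160 CPM (76.9 to 734), against 91.7 CPM for pCREB-only regions with fewer calls and 130 CPM for the GR-overlapping regions. A wider region can be merged from more peaks and collects more reads, so that width, reads and calls are not independent in the merged table. The part of width in the signal per kilobase was not tested.

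Within the set, width and signal rose with the number of calls. Regions with 13, 14, 15 and 16 calls had median widths of 588, 610, 732 and 854 bp and median signals of 128, 154, 199 and 274 CPM per kb. The 797 pCREB-only regions with 12 calls, just outside the set, had 551 bp and 114 CPM per kb. The strongest regions on each side of that limit were close in signal. Those with 13 calls were chr20:29445341-29446040 (257 CPM per kb), chr5:146404298-146404787 (235) and chr12:37984480-37985047 (232). Those with 12 calls were chr16:15628133-15628585 (230), chr6:109936010-109936390 (215) and chr13:41882354-41882814 (215). A GR region lay only 159 bp from chr5:146404298-146404787 and 469 bp from chr16:15628133-15628585, and 10131 to 54392 bp from the others.

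The regions lay mostly far from GR. The median distance to the nearest GR region was 101907 bp, close to the 99130 bp of the pCREB-only regions with fewer calls. A GR region lay within 1 kb of 17 of them (0.99%) and within 5 kb of 66 (3.85%), compared with 1.37% and 5.33% of the pCREB-only regions with fewer calls. The nearest other pCREB region was a median of 30076 bp away. At 465 of the regions (27.1%) at least 1 library had 2 or more peaks, compared with 14.3% of those with fewer calls and 32.8% of the GR-overlapping regions. Such a split needs a call in that library. The rule thus favours splits in the set over the regions with fewer calls, which were also narrower. Only 25 neighbouring pairs of the set lay within 5 kb of each other, and the closest pair, chr10:73797567-73798076 and chr10:73798095-73798584, was 19 bp apart. On the autosomes 13.1% (chromosome 17) to 18.7% (chromosome 10) of the pCREB-only regions belonged to the set, and on chromosome X 23 of 91 (25.3%) did.

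Libraries of the same condition differed at the common pCREB-only regions in a way that followed region width. In each condition the library with the highest share of reads in the set was compared with the one with the lowest. This choice was made after those shares were seen, so that it gives the direction of the difference and favours a large size. Regions over 600 bp hold most of the set's signal, so that the choice also favours a difference at wide regions. The size and the pattern over widths are thus described and were not tested. Each pair shares its condition and its lane. In trained vehicle, library B exceeded library C by a median log2 of 1.28 (2.43-fold) over the 1716 regions, and 953 of them (55.5%) were more than 2-fold higher. The 1947 GR-overlapping regions had a median log2 ratio of -0.40 for the same pair, and 52 of them (2.7%) were more than 2-fold higher in B. The scaling factors were 0.7526 for B and 1.11 for C, which raised the ratio at all regions alike. Its height and the counts above 2-fold thus depend on the scaling, whereas its differences between groups of regions hardly do.

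The 1716 ratios of trained vehicle B to C did not form a single hump. The most common class, from 1.5 to 2.0 on the log2 scale, held 520 regions (30.3%), while each class from -1.0 to 1.0 held 156 to 206. The ratio moved with width. The median log2 ratio was 0.21 for the 225 regions up to 400 bp and 0.24 for the 456 regions over 400 and up to 600 bp. It was 1.5 for the 451 regions over 600 and up to 800 bp, 1.67 for the 299 over 800 and up to 1000 bp and 1.79 (3.45-fold) for the 285 over 1 kb. Above 800 bp 523 of 584 regions (89.6%) were more than 2-fold higher in B and 36 were not higher. Up to 600 bp 127 of 681 (18.6%) were more than 2-fold higher and 276 were not higher.

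In the other conditions, with pairs chosen in the same way, a step over width appeared at smaller size. Trained corticosterone D exceeded C by a median log2 of 0.67, with 0.08, 0.16, 0.79, 0.92 and 1.00 from the narrowest to the widest class. Untrained vehicle B exceeded A, a shallow library, by 0.52, with 0.37, 0.31, 0.54, 0.67 and 0.61. Untrained corticosterone A exceeded D by 0.34, with 0.08, 0.05, 0.45, 0.57 and 0.48. In each of these pairs regions over 600 bp differed more than narrower ones, and the GR-overlapping regions had medians of -0.23, -0.14 and -0.17. The step was not limited to regions with many calls. Among pCREB-only regions with fewer calls the trained vehicle pair had medians of -0.31 and -0.32 in the 2 narrowest classes, 1.24 from 600 to 800 bp, and 1.72 and 1.79 in the 2 widest classes. Among GR-overlapping regions the medians of that pair were -0.14, -0.36, -0.46, -0.49 and -0.47 over the same classes.

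**Figure D3:**
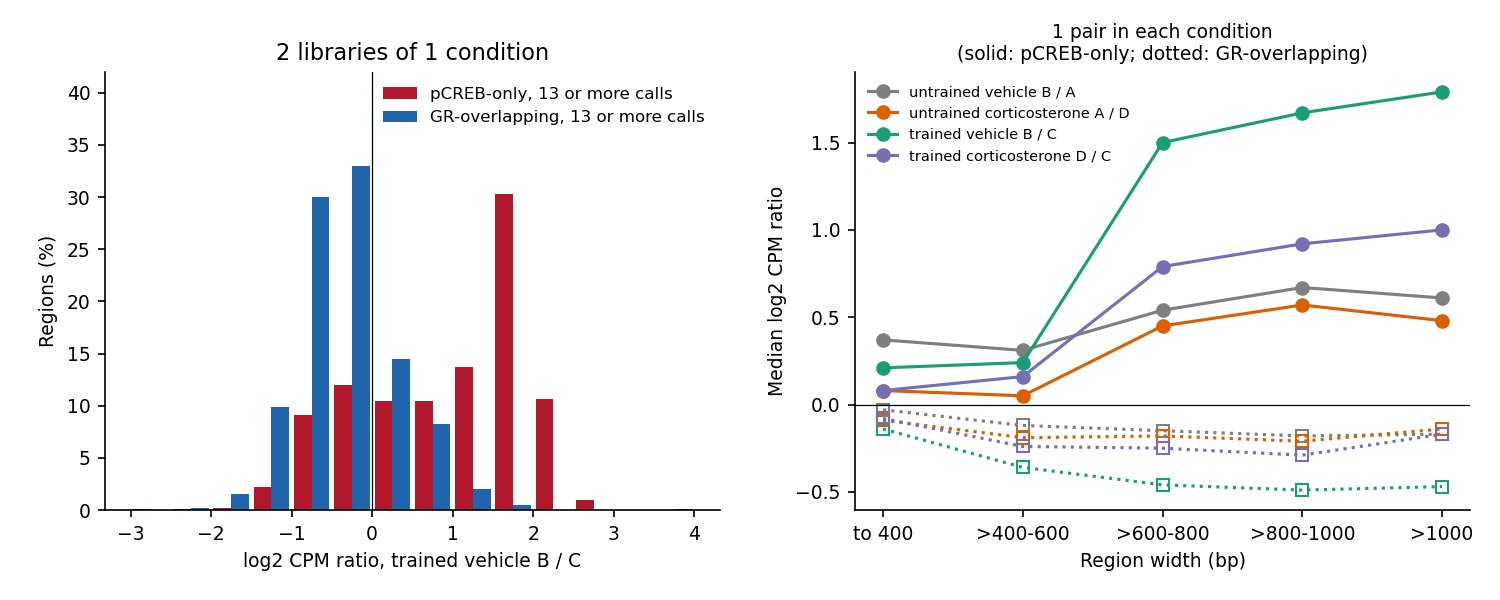
Left, distribution of the log2 CPM ratio of trained vehicle B to trained vehicle C (horizontal axis, classes of 0.5) as the percentage of the 1716 common pCREB-only regions and of the 1947 GR-overlapping regions with 13 or more calls. Right, median log2 ratio by width class for the libraries with the highest and lowest share of reads in the set, per condition. Lines for pCREB-only regions lie highest above 600 bp, reaching 1.79 in trained vehicle. Those for GR-overlapping regions stay at or below 0.

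Other features moved with this ratio as well. Trained vehicle B over C had a median log2 of 0.42 at the 66 regions with a GR region within 5 kb, 1.03 at the 784 with one between 5 and 100 kb, and 1.44 at the 866 farther away. The median widths of these groups were 582, 647 and 719.5 bp, so that distance and width moved together. By number of calls the median log2 ratio was 0.09 with 12 calls, outside the set, and 0.43, 0.83, 1.58 and 1.70 with 13, 14, 15 and 16. Median widths were 551, 588, 610, 732 and 854 bp in the same order, so that calls and width moved together too. The 23 regions on chromosome X had a median log2 ratio of 1.72 at a median width of 675 bp, against 1.26 at 682 bp for the other chromosomes.

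Summed over regions, the same contrast of widths held across all 16 libraries. The 225 regions up to 400 bp summed to 0.879 (untrained vehicle A) to 1.13 (trained vehicle A) times their mean over the libraries, a 1.29-fold range. The 285 regions over 1 kb summed to 0.593 (trained corticosterone C) to 2.11 (trained vehicle B) times their mean, a 3.56-fold range. The scaling factors of these 2 libraries, 1.119 and 0.7526, widened that range. The classes between had ranges of 1.55-fold, 2.76-fold and 3.31-fold. The GR-overlapping regions had ranges of 1.21-fold to 1.25-fold up to 1 kb and of 1.57-fold over 1 kb, where trained vehicle B was also highest, at 1.40 times the mean. Read depth moved with this order in part. In the widest class the deepest library, trained vehicle B, was highest, and trained corticosterone C and trained vehicle C, with 323554 and 325639 reads, were lowest at 0.593 and 0.627 times the mean. The 2 shallowest libraries, trained corticosterone A and untrained vehicle A, were at 0.982 and 0.828, and trained vehicle A, with 555104 reads, at 1.27. The mitochondrial share of reads was 2.05% in trained vehicle B, the lowest of the 16, and 3.80% and 3.90% in trained vehicle C and trained corticosterone C, and the highest was 8.65%. The part of depth or of the mitochondrial share in this spread was not tested.

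**Figure D4:**
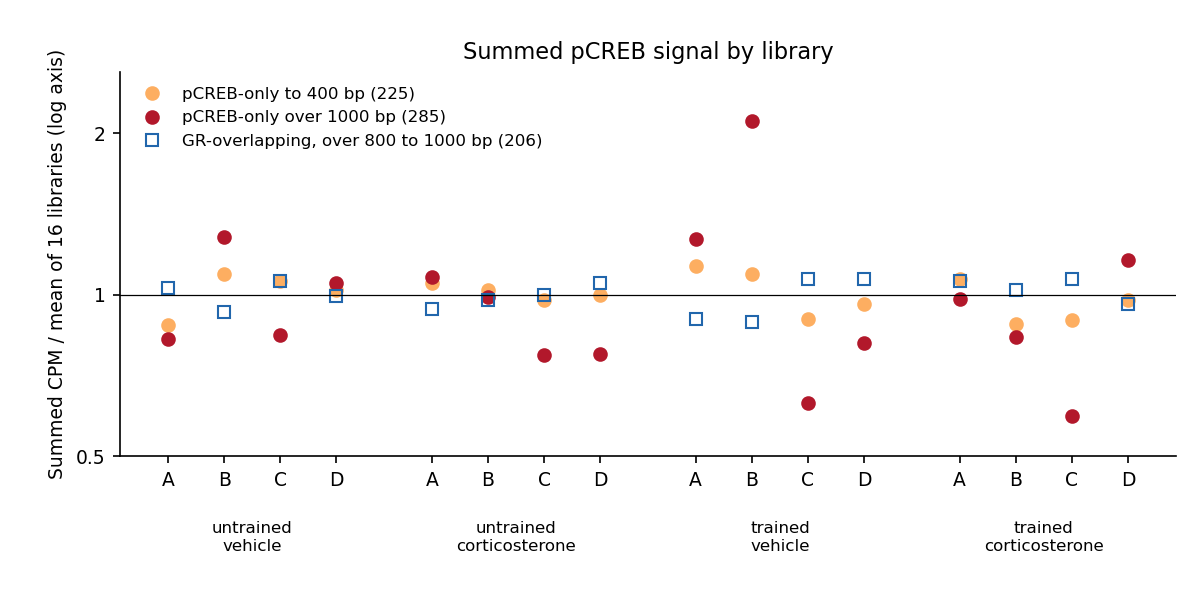
Summed CPM of 3 groups of pCREB regions in each of the 16 libraries, relative to the mean of the 16 (vertical log axis). Orange circles are the common pCREB-only regions up to 400 bp, red circles those over 1 kb, and blue squares GR-overlapping regions of 800 to 1000 bp. Red circles run from 0.593 to 2.11, the other points from 0.879 to 1.13. GR-overlapping regions over 1 kb are not drawn and run from 0.889 to 1.40.

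Per region, the SD of log2 CPM around the condition means had a median of 0.46 (0.13 to 0.85) in the set, 0.47 in the pCREB-only regions with fewer calls and 0.33 in the GR-overlapping regions. By width class the medians in the set were 0.37 up to 600 bp, 0.50 from 600 to 800 bp, and 0.52 and 0.53 above. Among regions with a mean CPM above the set's median, the least variable was chr11:13395452-13396144, which held 91.6 CPM in trained vehicle C, a median of 128 CPM and 159 CPM in trained corticosterone A. The next were chr18:13322020-13323176, from 79.2 CPM to 170 CPM, and chr18:73954744-73955503, from 87.7 CPM to 197 CPM. At these regions trained vehicle B exceeded C by 1.47-fold, 1.31-fold and 1.26-fold, below the medians of their width classes. The choice by small spread favours such low ratios.

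The most variable such region was chr7:98748204-98748830, with 50.3 CPM in untrained vehicle A, a median of 120 CPM and 239 CPM in trained corticosterone A. Both extremes belonged to the 2 shallowest libraries and stood for 11 and 30 reads. At chr5:28349595-28350365 the range was 30.5 CPM (trained corticosterone C) to 244 CPM (trained vehicle B). At chr3:164964529-164965504 trained corticosterone C held 38.8 CPM and trained vehicle B 523 CPM, while the median was 136 CPM. Apart from that value trained vehicle held 206, 122 and 121 CPM there, so that 1 library set the height of its condition.

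The effect of corticosterone was tested over the 8 corticosterone and the 8 vehicle libraries with edgeR's quasi-likelihood test, adjusted by Benjamini-Hochberg over 14553 regions. No common pCREB-only region passed an adjusted p of 0.05, and no pCREB region did (0% of those tested); DESeq2 called none either. At an unadjusted p under 0.05 there were 47 of the 1716 (2.74%), 43 of them lower with corticosterone, against 4.87% of all tested regions. With DESeq2 there were 75 (4.37%), against 4.18% of all, so that the set's share was below the background with edgeR and close to it with DESeq2. Without trained vehicle C the edgeR shares were 16.2% in the set (278 regions) and 10.7% over all tested regions. The 95% interval of the log2 fold change lay within 2-fold in both directions at 1601 regions of the set (93.3%) and at 94.3% of all tested regions. Most single regions were thus bounded within 2-fold of no difference.

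Fold changes of the set were shifted to lower values with corticosterone without any region passing. The median log2 fold change was -0.22, with 1344 of 1716 (78.3%) below 0, beside 0.00 over all tested regions, -0.01 over the pCREB-only regions with fewer calls and 0.04 over the GR-overlapping regions. A single region's standard error had a median of 0.24, as large as this shift, but it does not measure the error of the set's median. The set's wide regions moved together between libraries, so that counts below 0, here and below, are not counts of independent results. Between libraries of a condition the log2 share of reads in the set had an SD of 0.27. The shift of the median was not tested. The shift followed the width classes described above, with medians of -0.06 and -0.07 up to 400 and 600 bp and -0.25, -0.32 and -0.29 in the 3 wider classes. The pCREB-only regions with fewer calls had medians of -0.17, -0.28 and -0.30 in these 3 classes, with 68.4%, 86.8% and 94.9% below 0, so that the wide ones shared the shift. Without trained vehicle B the median was -0.09 over the set and -0.09 over regions above 1 kb, and without trained vehicle C it was -0.31 over the set. Scaling by total count, which moved the median of all tested regions to 0.08, gave -0.11. Relative to all tested regions the set's median was -0.215 with the reported scaling and -0.193 with that one. Scaling factors taken from the set itself, an alternative added after the data were seen, put the set's median at 0.00 by construction, the share below 0 at 49.8% and the median of all tested regions at 0.17, a difference of -0.167.

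The 3 regions with the smallest p for corticosterone were chr18:27354539-27354985, chr1:197982380-197983210 and chr10:62056260-62056734, and none passed (adjusted p = 0.84 each, edgeR). At chr18:27354539-27354985 the vehicle libraries held 73.1, 76.4, 63.4 and 54.1 CPM untrained and 77.7, 73.4, 55.5 and 65.0 CPM trained. The corticosterone libraries held 84.5, 53.3, 50.4 and 50.9 CPM untrained and 23.9, 45.3, 24.9 and 42.7 CPM trained. The 23.9 CPM of trained corticosterone A, the shallowest library, stood for 3 reads. The 2 groups overlapped through untrained corticosterone A, the highest of the 16, and the log2 fold change was -0.51 (SE 0.19). At chr1:197982380-197983210 vehicle libraries ran from 213 to 817 CPM (median 407) and corticosterone libraries from 117 to 403 CPM (median 248), a log2 fold change of -0.75 (SE 0.28). At chr10:62056260-62056734, which lies 4478 bp from a GR region, vehicle libraries ran from 50.3 to 85.2 CPM (median 75.7) and corticosterone libraries from 44.3 to 69.0 CPM (median 50.1). All 3 were lower with corticosterone in their medians, and at all 3 the groups overlapped.

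Training, tested over the 8 trained and the 8 untrained libraries, also gave no region of the set past the threshold. With edgeR 0 of 1716 and 0% of all tested regions passed, and DESeq2 called 2 pCREB regions (0.0137%), none of them in the set. Unadjusted p was under 0.05 at 13 of the 1716 (0.758%) with edgeR, beside 2.87% of all tested regions, and at 11 (0.641%) with DESeq2, beside 2.41%. The 95% interval lay within 2-fold at 1712 regions of the set (99.8%) and at 96.8% of all. The median log2 fold change was 0.07 in the set, with 33.9% of its regions below 0, and 0.02 over all tested regions. It was -0.07 in the set without trained vehicle B, so that its sign rested on that library, and 0.00 with scaling by total count, under which 49.7% were below 0.

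The smallest p for training in the set belonged to chr7:143023999-143024466, chr3:82856435-82856756 and chr2:22155828-22156243 (adjusted p = 1 each, edgeR). At the first, untrained libraries held 32.0, 39.3, 47.1 and 43.2 CPM with vehicle and 31.2, 40.4, 47.8 and 22.9 CPM with corticosterone. Trained libraries held 43.6, 47.4, 61.1 and 46.4 CPM with vehicle and 95.7, 55.8, 72.1 and 44.7 CPM with corticosterone, and the log2 fold change was 0.52 (SE 0.20). The highest value came from the shallowest library, trained corticosterone A, and the groups overlapped between 43.6 and 47.8 CPM. At chr3:82856435-82856756 the medians were 49.2 CPM untrained and 39.1 CPM trained, and at chr2:22155828-22156243 they were 52.8 and 36.7 CPM. Both had a log2 fold change of -0.48 (SE 0.20) with overlapping groups.

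Whether training altered the response to corticosterone was tested as an interaction. No region of the set passed with edgeR or DESeq2 and 0% of all tested regions did. An unadjusted p under 0.05 was found at 8 of the 1716 (0.466%) with edgeR, beside 3.30% of all tested regions, and at 9 (0.524%) with DESeq2, beside 2.69%. The interval of the interaction lay within 2-fold at 329 regions (19.2%, beside 18.6% of all), so that a 2-fold difference in response could not be bounded at most single regions. The median log2 interaction was -0.21 in the set and -0.04 over all tested regions, and it was 0.05 in the set without trained vehicle B. From the narrowest to the widest class the medians were -0.09, -0.07, -0.21, -0.31 and -0.29 with that library and -0.08, 0.00, 0.07, 0.07 and 0.12 without it.

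The smallest p for the interaction was found at chr2:219474518-219475081 (unadjusted p = 0.00299, adjusted p = 0.999 with edgeR, log2 interaction 1.40, SE 0.44). Untrained vehicle held 54.8, 72.0, 123 and 105 CPM and untrained corticosterone 44.1, 51.4, 74.3 and 58.5 CPM. Trained vehicle held 26.5, 54.5, 58.3 and 78.9 CPM and trained corticosterone 104, 73.2, 125 and 63.0 CPM. Means were lower with corticosterone in untrained rats (57.1 ± 12.9 against 88.8 ± 30.9 CPM, SD, n = 4) and higher in trained rats (91.1 ± 28.3 against 54.5 ± 21.5 CPM), with overlap in both. The next were chr6:126009789-126010245 (log2 interaction -0.94, SE 0.39) and chr8:70702690-70703010 (-0.96, SE 0.42), at which the difference had the opposite sign. At chr8:70702690-70703010 trained corticosterone A and B held 15.9 and 19.2 CPM (2 and 11 reads), and no other library fell below 36.1 CPM. Trained corticosterone A is the shallowest library.

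**Figure D5:**
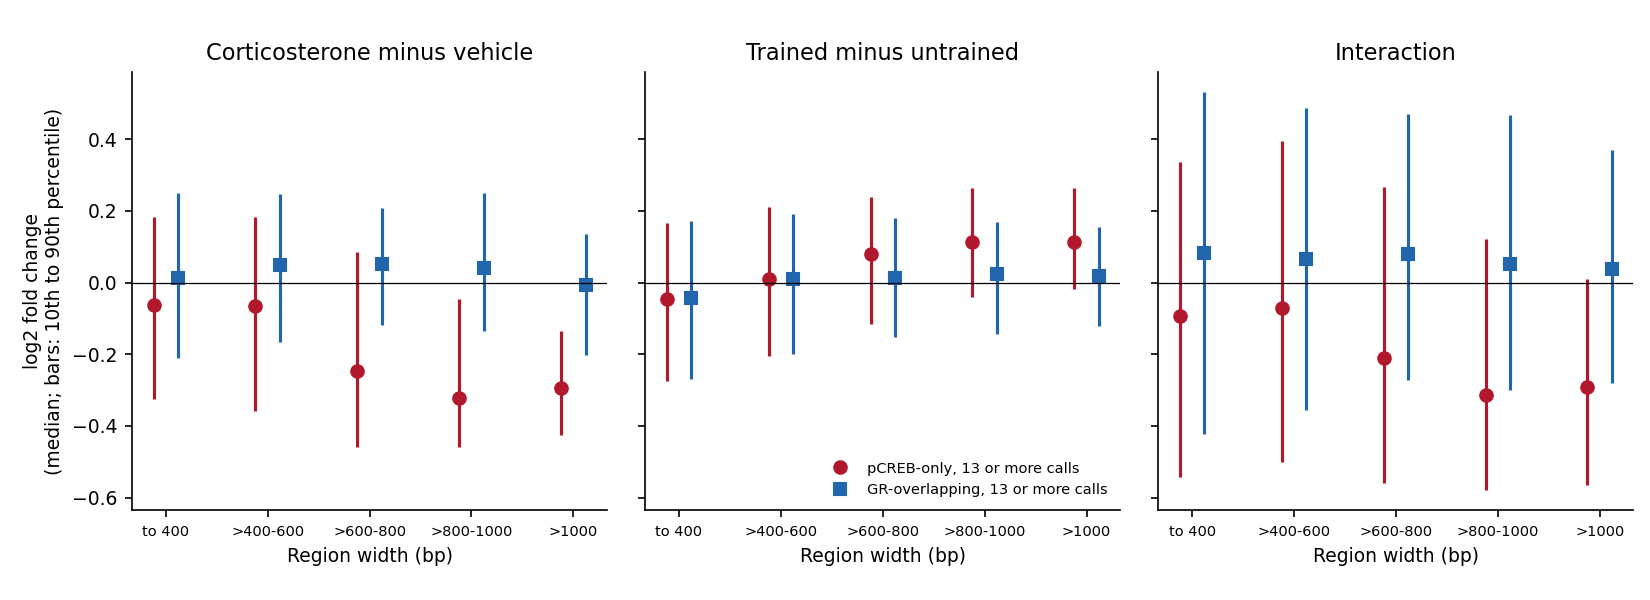
Fitted log2 fold changes by width class for corticosterone against vehicle, trained against untrained, and their interaction; markers are medians over regions and bars run from the 10th to the 90th percentile of regions, not an error of the median. Circles are the 1716 common pCREB-only regions and squares the 1947 GR-overlapping regions with 13 or more calls; the circles for corticosterone fall from -0.06 in the narrowest class to -0.32 at 800 to 1000 bp, while the squares lie between -0.01 and 0.05.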

How the data were processed

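ChIP-seq of pCREB in rat hippocampus was analysed for 16 libraries, 4 per condition; the GR counts and the 4 inputs were not analysed here. Per the submitters' processing notes, the authors' tools were HTSeq 0.6.1-1, bedtools 2.26.0, BWA 0.7.10 and MACS2 2.1.1.20160309, on genome build rn6, with parameters not given in the sources used here. Per the labels' protocols, libraries had 15 PCR rounds and were sequenced as single reads of 51 and 65 bp. The authors deposited raw read counts per merged region and library, with the names of the peak calls; PCR duplicates cannot be recognised in them.

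Calls per library were read from the peak names and overlaps with GR regions computed from the coordinates. Counts were fitted with edgeR 4.0.16 (R 4.3.3; TMM, filterByExpr by condition, robust quasi-likelihood F test, 1 model of 4 conditions, no covariates) and p-values adjusted by Benjamini-Hochberg over 14553 regions at 0.05; DESeq2 1.42.0 was an alternative. Standard errors are the absolute log2 fold change over the root of F. CPM are TMM-normalised over the tested regions, and log2 ratios of 2 libraries used CPM + 1. The test was tried on simulated counts first. P-values measure the spread between pools.

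The regions and lists were chosen with earlier results of these data known. Named regions are the 10 highest in CPM per kb, the 3 with the smallest p per contrast, the 3 most and 3 least variable among those above the median CPM, and the 3 strongest with 13 and with 12 calls. Planned gene lists and motifs needed a genome of build rn6 and were not used.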

Additional observations from a re-analysis of the deposited data

Results flagged for a closer look

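Groups of 4 libraries were examined at the 31 named regions, 3 of which lie outside the set (124 groups), and for the share of reads in the set (4 groups). In 5 groups, all at regions of the set, 1 library stood far apart from the other 3; chance alone gives about 1 in 20 such groups. At chr18:27354539-27354985 untrained corticosterone A held 84.5 CPM and the other libraries of its condition 50.4 to 53.3 CPM. At chr3:82856435-82856756 untrained corticosterone D held 63.6 CPM, against 39.8 to 42.2 CPM, and trained vehicle C held 22.2 CPM, against 41.7 to 44.1 CPM. At chr5:146404298-146404787 trained vehicle D held 149 CPM, against 83.3 to 89.0 CPM. At chr12:37984480-37985047 trained vehicle B held 367 CPM, against 94.4 to 135 CPM. The last is the library that was highest over the wide regions as a whole.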

How the results depend on the processing

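No region of the set passed an adjusted p of 0.05 in any of the 3 comparisons under DESeq2, scaling by total count, DESeq2 size factors in edgeR, no filter on low counts, omission of mitochondrial regions, a threshold of 0.1, or leaving out each library in turn. Leaving out libraries gave smallest adjusted p-values in the set of 0.461 to 1 for corticosterone, 0.984 to 1 for training and 0.831 to 1 for the interaction. The median log2 fold change of the set ran from -0.31 to -0.09 for corticosterone, from -0.07 to 0.14 for training and from -0.37 to 0.05 for the interaction. Unadjusted edgeR p-values under 0.05 numbered 17 to 278 (0.991% to 16.2% of the set), 8 to 17 (0.466% to 0.991%) and 4 to 42 (0.233% to 2.45%). Over all tested regions the shares were 3.04% to 10.7%, 2.61% to 3.76% and 2.55% to 5.52%. The 278 arose without trained vehicle C (16.2% of the set, beside 10.7% of all tested regions). The same-letter libraries of different conditions paired weakly at most. Their deviations correlated at -0.34 to 0.51 (median 0.12, 13 of 24 pairs above 0.1). The 72 pairs of different letters correlated at -0.53 to 0.47 (median -0.06), and 6 of 16 libraries correlated best with their own letter. A replicate block by letter called 0 regions of the set in each comparison, with medians of -0.19, 0.04 and -0.15. For corticosterone the block fit in edgeR had unadjusted p under 0.05 at 76 regions of the set (4.43%), beside 6.19% of all tested regions. Chosen after the data were seen, omission of both shallow libraries called none and gave a corticosterone median of -0.27. Requiring 14 calls left 1054 regions and all 16 calls 324, and over pCREB-only reads alone the set's mean share was 35.4%. The alternatives on motifs and gene starts were not run.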
